A study of Mus musculus with 4 samples.

Results

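Ly6a, Ly6i, Ly6e and Ly6g are 4 genes of the Ly6 family, whose products are small proteins held on the outer face of the cell membrane by a glycosylphosphatidylinositol (GPI) anchor. They were taken by symbol from a table of 12584 genes, in which 10 genes carry a symbol that begins with Ly6. The rule that picks them uses the symbol and no measured value, but the 4 were chosen with earlier results of these data known. Gene expression was measured in 34447 single cells sorted for CD45, the common surface marker of blood-derived cells, from tumours of YUMM1.7 OVA, a mouse melanoma line that expresses ovalbumin. All 4 groups were built on RTT cells, a derivative of that line with acquired resistance to targeted therapy, and all tumours grew in Rag2-/- mice, which have no T or B cells of their own. All received activated ovalbumin-specific OT-1 CD8+ T cells by adoptive transfer (ACT) on day 7, and tumours were taken on day 10, 72 h after transfer.

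In the CTRL group the tumour cells carried an mCherry vector. In the IRF3/7 group they overexpressed the transcription factors IRF3 and IRF7, a change made in the tumour cells and not in the leukocytes measured here. In the COX2i group tumours of mCherry cells were treated with the COX2 inhibitor celecoxib. In the COX2i + 5-AZA group they were treated with celecoxib and the DNA methylation inhibitor 5-azacytidine. Each group is 1 library made from 3 pooled tumours. Per the methods the mice were 6 to 12 weeks of age.

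Ly6a encodes stem cell antigen 1, a marker of blood stem cells that is also carried by many activated leukocytes and by vessel-lining cells. Ly6a and Ly6e are known interferon-induced genes. Ly6e is expressed widely and limits entry of several viruses into cells. Ly6g is the surface antigen by which mouse neutrophils are usually recognised. Ly6i is a less studied neighbour of Ly6a reported on myeloid cells. Type I interferons and interferon-γ act through different receptors and switch on overlapping sets of genes, and myeloid cells in tumours respond to both.

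The 4 genes lie within 204 kb of mouse chromosome 15 (GRCm38), a stretch that holds 6 protein-coding genes in the annotation, of which these 4 are in the table. Ly6e spans 74955051 to 74959905 on the plus strand, Ly6i 74979534 to 74983430 on the minus strand, Ly6a 74994877 to 74998031 on the minus strand and Ly6g 75155240 to 75159126 on the plus strand. No annotated gene overlaps any of them. The coding sequence is 405 bases in Ly6a, Ly6i and Ly6g and 411 bases in Ly6e. Ly6a was 86.4% identical to Ly6i and 84.1% identical to Ly6g over the aligned coding sequence, and Ly6i was 79.5% identical to Ly6g. Ly6e was the distant member, at 54.1% to 56.0% identity with the other three.

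These sequences matter for the counts, because the kit reads each gene through short probes. Ly6a and Ly6i share an unbroken run of 80 bases, coding bases 50 to 129 (counted from the A of the start codon), and are told apart best in a window of 60 bases, coding bases 209 to 268. Both stretches are printed from the GENCODE transcripts, with capitals for bases that differ from Ly6a.
Ly6a and Ly6i, bases 50 to 129: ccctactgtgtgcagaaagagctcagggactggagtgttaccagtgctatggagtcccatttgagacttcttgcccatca
Ly6g, bases 50 to 129: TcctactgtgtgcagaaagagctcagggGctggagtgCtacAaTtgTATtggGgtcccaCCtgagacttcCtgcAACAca
Ly6a, bases 209 to 268: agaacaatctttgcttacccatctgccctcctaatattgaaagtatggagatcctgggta
Ly6i, bases 209 to 268: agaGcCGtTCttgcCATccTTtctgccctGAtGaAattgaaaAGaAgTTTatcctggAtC
Ly6g, bases 209 to 268: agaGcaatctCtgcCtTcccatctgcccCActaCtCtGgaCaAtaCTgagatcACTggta
In the first stretch Ly6g differs from Ly6a at 16 bases. In the second, Ly6i differs at 22 bases and Ly6g at 16.

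Of the 381 windows of 25 bases in the Ly6a coding sequence, 147 (38.6%) also occur in a transcript of another gene, 62 of them in Ly6i. The share was 31.8% for Ly6i, 26.2% for Ly6g and 8.01% for Ly6e. With windows of 50 bases, 14.3% of those in Ly6a, 9.27% in Ly6i, 1.12% in Ly6g and 0 of 362 in Ly6e were shared. The probe sequences are not given in the sources used here, so whether a probe of 1 gene also reads its neighbour was not tested. The number of probes per gene was not known either, and levels are therefore compared between libraries and cell classes for 1 gene at a time, not between genes.

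Depth ranged from 26356819 unique molecular identifiers (UMIs) in IRF3/7 to 78722763 in COX2i, and the median cell held 3168 UMIs in IRF3/7 and between 6039.5 and 7502 in the other libraries. A level is given in CPM, the UMIs of the gene in a set of cells scaled by all UMIs of that set to the usual unit of counts. With 1 library per group there was no replicate and hence no test between conditions. Values in parentheses are exact 95% intervals, which cover counting error and not the spread between tumours. Cell classes are those deposited by the authors, who clustered the cells on expression that included these genes, so levels by class are descriptions. Among the 10 genes that set each class furthest apart from the rest, Ly6i appears for Monocyte_1 and Monocyte_3 and Ly6g for Neutrophil. Of the 17 classes, T_CD8 held 16 cells in all and was left out. A class is given in a library where it had at least 20 cells. The class deposited as Myofibrobl is written Non-immune (collagen genes lead it) and DC3 is written CCR7+ DC.

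Ly6a, the gene for stem cell antigen 1, was higher in each of the other libraries than in CTRL. Over monocytes and macrophages together it stood at 106 (104 to 109) CPM in CTRL, 4221 (4191 to 4251) in IRF3/7, 305 (301 to 309.5) in COX2i and 1947 (1937 to 1958) in COX2i + 5-AZA. The library with IRF3/7 was highest, and no pair of the 4 intervals overlapped. The log2 ratio was 5.31 (5.27 to 5.35) for IRF3/7 against CTRL, 1.52 (1.48 to 1.56) for COX2i against CTRL, 4.20 (4.16 to 4.23) for COX2i + 5-AZA against CTRL and 2.67 (2.65 to 2.70) for COX2i + 5-AZA against COX2i. The 3 comparisons with CTRL share that library, and 2 share COX2i + 5-AZA.

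For scale, a gene was counted as called where its CPM was at least 2-fold higher, among genes with at least 20 UMIs in the 2 libraries. In monocytes and macrophages 9.16% of 11793 genes were called for IRF3/7 against CTRL, 1.93% of 11905 for COX2i against CTRL, 5.65% of 12001 for COX2i + 5-AZA against CTRL and 6.16% of 11940 for COX2i + 5-AZA against COX2i. Ly6a and Ly6i were called in all 4 of these comparisons. Ly6e was called in 2 comparisons with CTRL, those of IRF3/7 and COX2i + 5-AZA, and stood at the threshold against COX2i, with a ratio of 1.00 (0.99 to 1.01). The share of genes with a ratio at or above that of Ly6a was 0.53%, 0.65%, 0.42% and 1% in the same order.

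The cells summed here were not the same mixture in each library. Infl_Mono made up 4335 of 5035 monocytes and macrophages in IRF3/7, Monocyte_1 made up 3640 of 8801 in COX2i + 5-AZA, TAM_cycling 3164 of 7378 in COX2i, and TAM_C1q and TAM_Spp1 3199 and 2347 of 7614 in CTRL. With the class mix of the comparison's control library, the Ly6a ratio was 4.51 for IRF3/7 against CTRL (over 3 classes), 1.18 for COX2i against CTRL, 3.06 for COX2i + 5-AZA against CTRL and 1.86 for COX2i + 5-AZA against COX2i. The first value used only Infl_Mono, Monocyte_1 and TAM_cycling and left out TAM_C1q and TAM_Spp1. Most of its weight was on TAM_cycling, with 20 cells in IRF3/7. The direction held in each comparison and the size was smaller. Median-of-ratios size factors, used instead of the total, differed by a log2 shift of -0.52 for IRF3/7 against CTRL in monocytes and macrophages. All ratios of that comparison were thus higher by that size. That scaling also changed the split of 2-fold calls in the comparison, from 9.16% higher and 32.2% lower to 15.6% higher and 19.6% lower. For COX2i + 5-AZA against COX2i the split went from 6.16% higher and 9.77% lower to 7.57% higher and 7.19% lower.

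**Figure D1:**
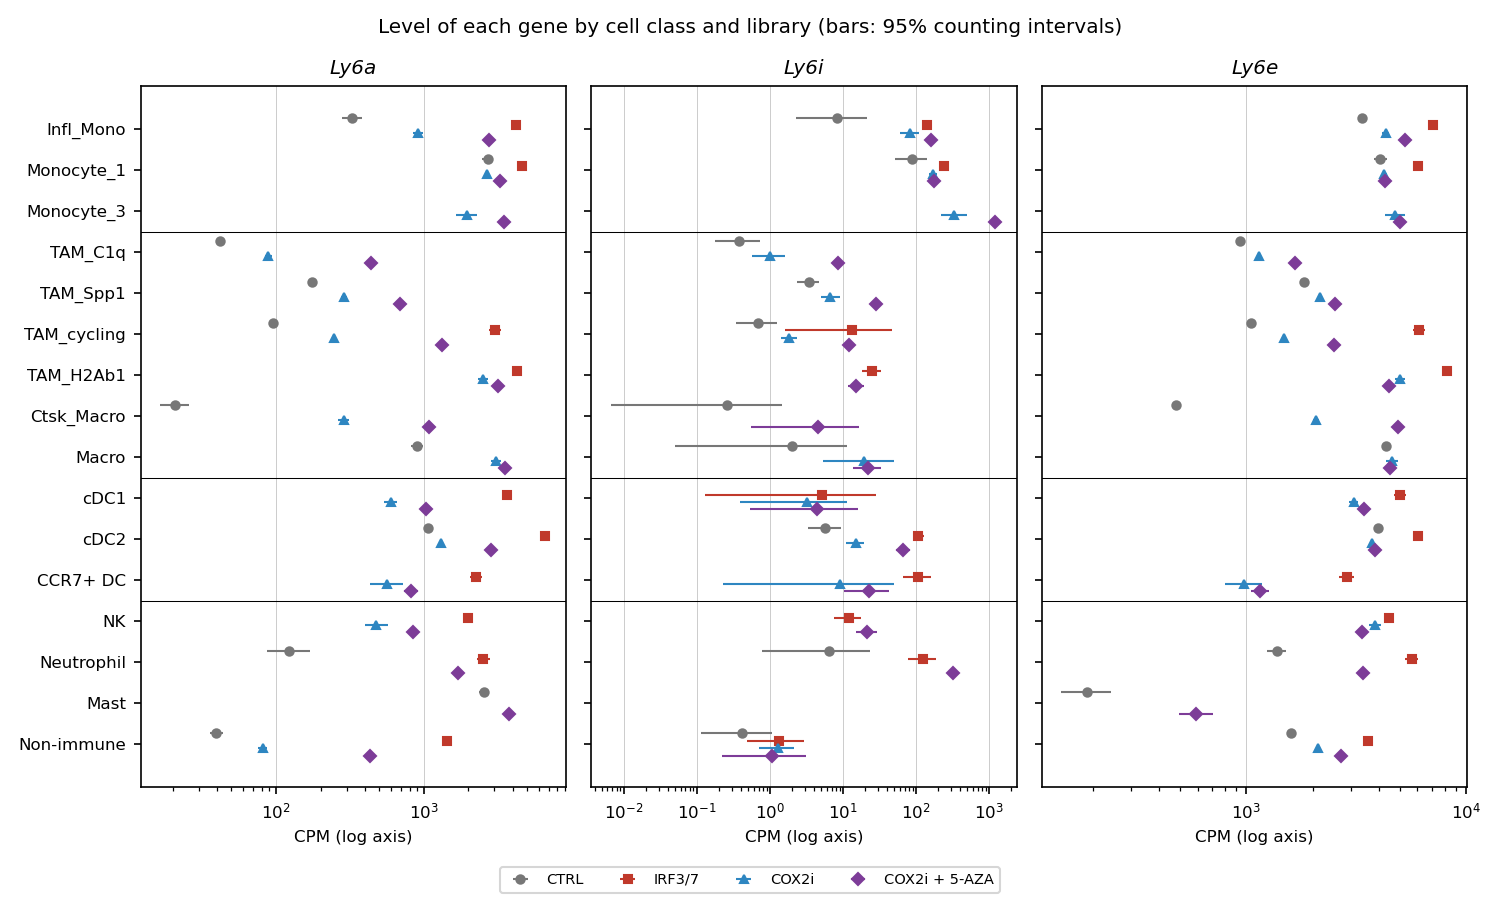
Level of Ly6a, Ly6i and Ly6e (CPM, log axis) by cell class and library, with exact 95% intervals for counting error (bars); each point is the summed count of 1 class in 1 library, and points at 0 UMIs or from classes under 20 cells are not drawn. Ly6a in TAM_C1q lay at 41.9 CPM in CTRL and 438 in COX2i + 5-AZA, whereas in Monocyte_1 all 4 libraries lay between 2678 and 4605.

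By class, Ly6a was already high in CTRL in a few small classes and low in the large macrophage classes. In Monocyte_1, which carries interferon-γ-regulated genes such as Nos2 and Cxcl9, Ly6a was 2712 CPM in CTRL, 4605 in IRF3/7, 2678 in COX2i and 3281 in COX2i + 5-AZA. The COX2i ratio to CTRL in this class was -0.018 (-0.15 to 0.11), an interval that holds 0, and the COX2i + 5-AZA ratio was 0.27 (0.15 to 0.40). So in Monocyte_1 the libraries differed by less than 2-fold, with 44 cells in CTRL. In Infl_Mono, a class led by type I interferon-regulated genes, Ly6a was 328 CPM in CTRL, 4210.1 in IRF3/7, 915 in COX2i and 2740.1 in COX2i + 5-AZA. There the ratio to CTRL was 3.68 for IRF3/7, 1.48 for COX2i and 3.06 for COX2i + 5-AZA. Infl_Mono in CTRL (93 cells) thus had less Ly6a than Monocyte_1 in the same library, and the gap between both classes was smaller in IRF3/7, at 4210.1 against 4605 CPM. Monocyte_3, the class with Ace and Treml4 of patrolling monocytes, was measured in COX2i and COX2i + 5-AZA, at 1952 and 3486 CPM.

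Among macrophages, TAM_C1q, named by the authors for complement C1q genes, had 41.9 CPM in CTRL, 88.7 in COX2i and 438 in COX2i + 5-AZA of Ly6a. TAM_Spp1, named for Spp1, had 176 CPM in CTRL, 289 in COX2i and 690.0 in COX2i + 5-AZA. TAM_cycling, marked by proliferation genes, had 95.5 CPM in CTRL, 3025 in IRF3/7, 247 in COX2i and 1327 in COX2i + 5-AZA, the IRF3/7 value resting on 20 cells. In these 3 classes the libraries that were measured stood in the same order as in the sum. The ratio of COX2i + 5-AZA to CTRL was 3.39 (3.29 to 3.48) in TAM_C1q, 1.97 (1.89 to 2.05) in TAM_Spp1 and 3.80 (3.72 to 3.87) in TAM_cycling. Ctsk_Macro, with the osteoclast-type genes Ctsk and Acp5, went from the lowest level of any class in CTRL, 20.7 CPM, to 286 in COX2i and 1091 in COX2i + 5-AZA. Its ratio of 5.72 (5.37 to 6.08) was the highest class ratio to CTRL measured for Ly6a, with 37 cells in COX2i + 5-AZA. Macro, with the resident macrophage genes Retnla and Lyve1, had 899 CPM in CTRL, 3069 in COX2i and 3557 in COX2i + 5-AZA. TAM_H2Ab1, named by the authors for an MHC class II gene and led here by Fcrl5, Cd300e and Lipg with no class II gene among its 10 leading genes, had 4297 CPM in IRF3/7, 2506 in COX2i and 3182 in COX2i + 5-AZA and fewer than 20 cells in CTRL.

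Dendritic cells showed the same ordering of libraries. In cDC2, Ly6a was 1069 CPM in CTRL, 6628 in IRF3/7, 1297 in COX2i and 2843 in COX2i + 5-AZA, and the IRF3/7 value was the highest Ly6a level of any class in any library. The cDC2 ratio to CTRL was 2.63 (2.57 to 2.69) for IRF3/7 and 0.28 (0.21 to 0.35) for COX2i. In cDC1 the level was 3663 CPM in IRF3/7, 597 in COX2i and 1041 in COX2i + 5-AZA, and in CCR7+ DC, migratory dendritic cells, it was 2251 CPM in IRF3/7, 561 in COX2i and 818 in COX2i + 5-AZA. NK cells, the natural killer lymphocytes, had 1991 CPM in IRF3/7, 478 in COX2i and 844 in COX2i + 5-AZA. Neutrophils had 123 CPM in CTRL, 2531 in IRF3/7 and 1706 in COX2i + 5-AZA, a ratio of 4.36 (3.88 to 4.88) for IRF3/7 against CTRL on 38 UMIs in CTRL. The CTRL cells of this class also had more signal of the 5 TAM_C1q markers, 34579 CPM against 7277 in IRF3/7 and 4848 in COX2i + 5-AZA, and its part in the neutrophil ratios of Ly6a, Ly6i and Ly6e to CTRL was not tested. Mast cells were high in both libraries where they could be measured, at 2535 CPM in CTRL and 3742 in COX2i + 5-AZA. Non-immune cells had 39.4 CPM in CTRL, 1427 in IRF3/7, 81.1 in COX2i and 431 in COX2i + 5-AZA.

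Counting classes with at least 20 cells in both libraries, the interval of the Ly6a ratio lay above 0 in 6 of 6 classes for IRF3/7 against CTRL, 8 of 9 for COX2i against CTRL, 11 of 11 for COX2i + 5-AZA against CTRL and 14 of 14 for COX2i + 5-AZA against COX2i. The class ratios ranged from 0.76 in Monocyte_1 to 5.18 in Non-immune for IRF3/7 against CTRL, and from 0.27 in Monocyte_1 to 5.72 in Ctsk_Macro for COX2i + 5-AZA against CTRL. In CTRL the descending order was Monocyte_1, Mast, cDC2, Macro, Infl_Mono, TAM_Spp1, Neutrophil, TAM_cycling, TAM_C1q, Non-immune and Ctsk_Macro. In that order the neighbours Monocyte_1 and Mast, Neutrophil and TAM_cycling, and TAM_C1q and Non-immune did not differ beyond counting error. In IRF3/7 cDC2 led, followed by Monocyte_1, TAM_H2Ab1 and Infl_Mono, of which the last pair did not differ beyond counting error. In COX2i Macro led, followed by Monocyte_1 and TAM_H2Ab1, which did not differ beyond counting error, then Monocyte_3 and cDC2. In COX2i + 5-AZA Mast, Macro and Monocyte_3 led with no difference between neighbours beyond counting error, followed by Monocyte_1, TAM_H2Ab1, cDC2 and Infl_Mono.

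**Figure D2:**
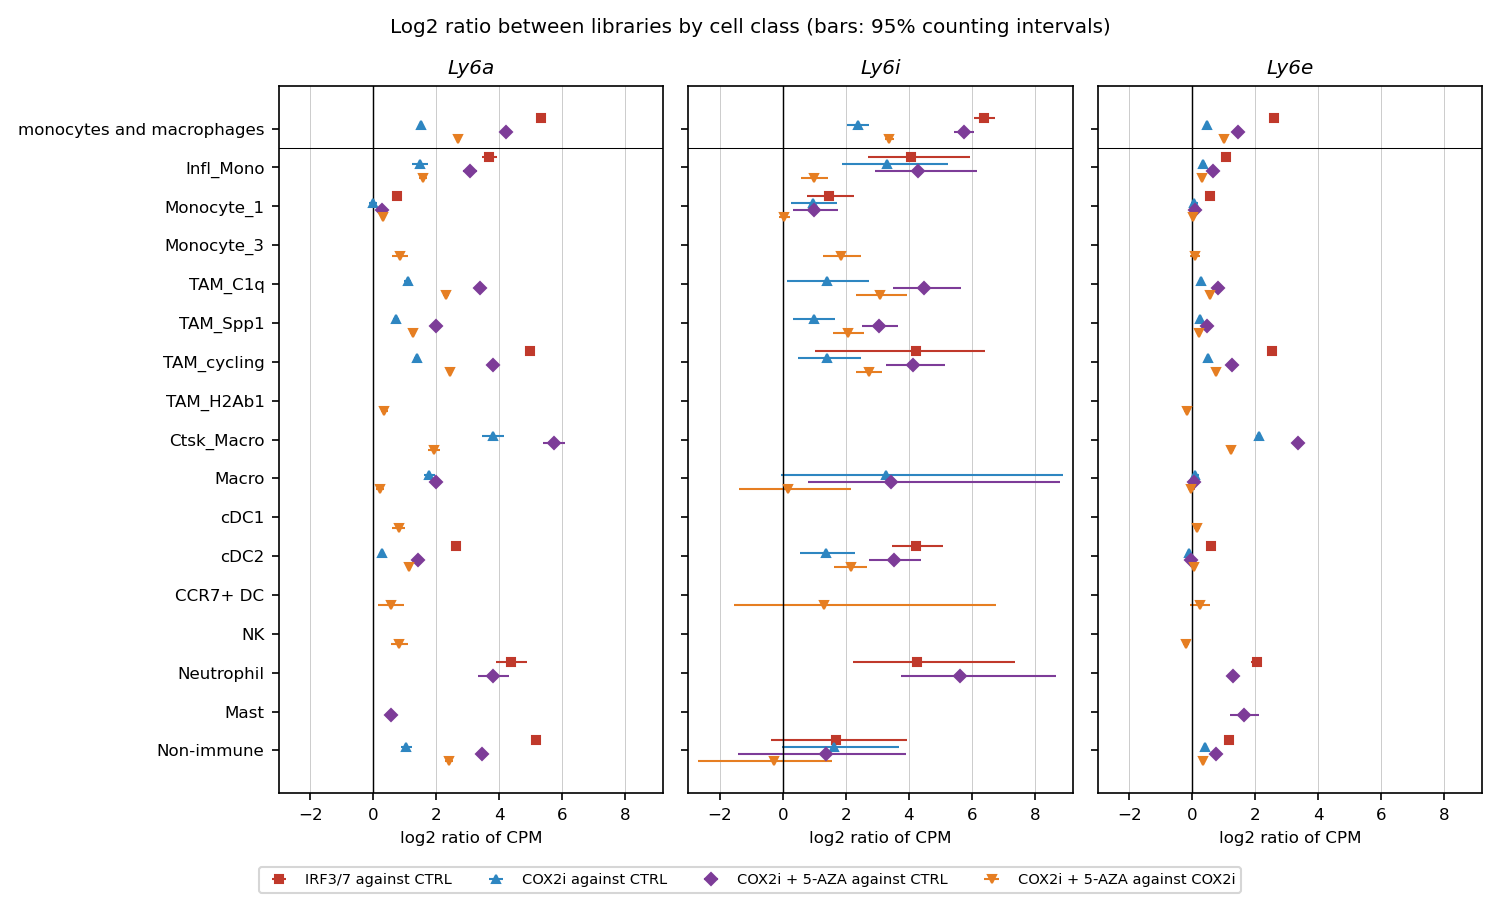
Log2 ratio of CPM for Ly6a, Ly6i and Ly6e in each cell class (points) with exact 95% intervals for counting error (bars), in the 4 comparisons; 0 means equal levels. Ly6a ratios of COX2i + 5-AZA to CTRL ran from 0.27 in Monocyte_1 to 5.72 in Ctsk_Macro, and those of Ly6e from -0.041 in cDC2 (0.095 when scaled to the median gene of the class) to 3.34 in Ctsk_Macro.

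A higher level can stand for more cells with the transcript or more transcript per cell, and cells were thinned to 1000 UMIs each to compare shares at equal depth. A share at that depth also rises with transcript per cell, so it cannot tell these apart. Of monocytes and macrophages, 7.01% (6.45 to 7.61) had a Ly6a UMI in CTRL, 87.2% (86.2 to 88.1) in IRF3/7, 17.1% (16.2 to 18.0) in COX2i and 67.1% (66.1 to 68.0) in COX2i + 5-AZA. Without thinning the shares were 18.6%, 95.5%, 37.9% and 88.1%. Ly6a was thus found in most of these cells in IRF3/7 and COX2i + 5-AZA and in a minority in CTRL and COX2i. The lowest thinned shares were those of CTRL, at 1.84% in Ctsk_Macro, 2.97% in TAM_C1q and 3.25% in Non-immune cells. At that depth the median cDC2 held 1 Ly6a UMI in CTRL and 6 in IRF3/7, and the median Infl_Mono held 0 in CTRL, 3 in IRF3/7, 0 in COX2i and 2 in COX2i + 5-AZA. In cDC2 and Monocyte_1 most CTRL cells already had a UMI at that depth (54.3% and 75%). The unthinned shares in those classes in CTRL were 81.9% and 100%. Non-immune cells, a class of another lineage, had a Ly6a UMI in 3.25% of thinned cells in CTRL, 50.6% in IRF3/7, 6.58% in COX2i and 22.5% in COX2i + 5-AZA. Ly6a can be expressed by such cells, so these shares are no clean measure of free RNA, and those of monocytes and macrophages in the same libraries were higher.

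**Figure D3:**
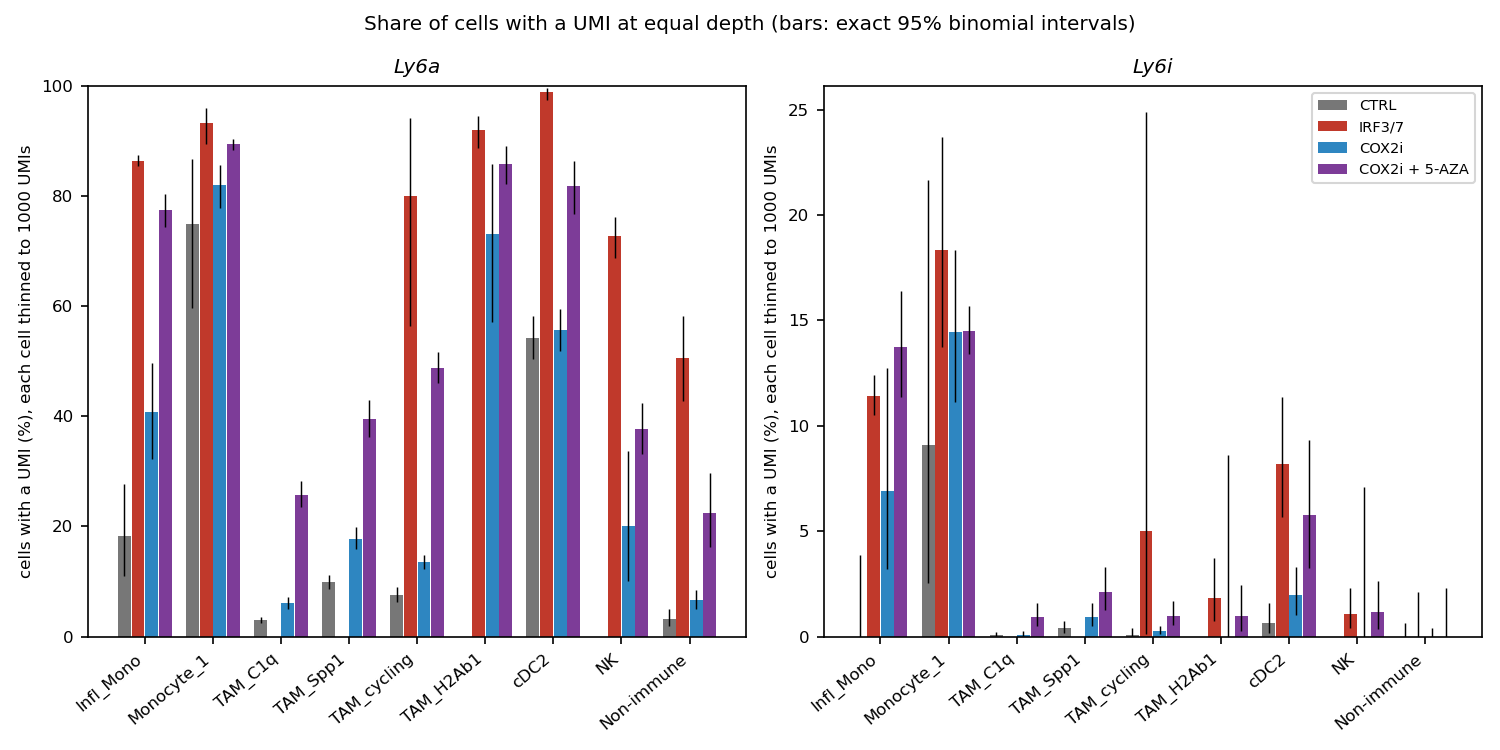
Percent of cells with at least 1 UMI of Ly6a (left) or Ly6i (right, shorter axis) after thinning each cell to 1000 UMIs, by class and library, with exact 95% binomial intervals (lines); bars are absent where a class had under 20 cells or no cell with a UMI. Ly6a was found in 2.97% of TAM_C1q cells in CTRL and 25.8% in COX2i + 5-AZA, and in 99.0% of cDC2 in IRF3/7.

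Within a library, cells with and without a Ly6a UMI at equal depth were compared for a few other genes, chosen after their values were seen. In macrophages of COX2i + 5-AZA, Gbp2, an interferon-γ-induced GTPase, was found in 54.3% of cells with a Ly6a UMI and 23.1% of cells without one. Cxcl9, the interferon-γ-induced chemokine that draws T cells, was found in 21.4% of cells with a Ly6a UMI and 5.49% of cells without one, and Isg15, a ubiquitin-like interferon-stimulated protein, in 26.9% of cells with a Ly6a UMI and 10.9% of cells without one. In COX2i macrophages Gbp2 was in 36.1% of cells with a Ly6a UMI and 7.22% of cells without one, and in CTRL macrophages in 15.5% of cells with a Ly6a UMI and 2.66% of cells without one. These macrophages mix 6 classes, whose Ly6a levels differ. Within TAM_cycling alone, Gbp2 was in 60.3% of cells with a Ly6a UMI and 22.5% of cells without one in COX2i + 5-AZA, and in 38.9% and 6.21% in COX2i. Over 21 single classes in single libraries, the Gbp2 share was higher in cells with a Ly6a UMI in 21, with intervals apart in 14. Intervals were apart that way in 11 for Isg15, 7 for Cxcl9, 2 for the type I interferon target Ifit3 and 1 for Nos2. Another gene compared was lower in cells with a Ly6a UMI, with intervals apart in 6. In monocytes, which also mix classes, Ifit3 was lower in cells with a Ly6a UMI in CTRL (12% against 40.4%) and COX2i (11.4% against 22.2%). In IRF3/7 and COX2i + 5-AZA the Ifit3 intervals overlapped. Within Infl_Mono of IRF3/7, a single class in which 3747 of 4335 cells had a Ly6a UMI, Gbp2 was in 60.2% of cells with a Ly6a UMI and 59.4% of cells without one, which is no difference beyond counting error. There Ly6i was in 12.5% of cells with a Ly6a UMI and 4.42% of cells without one. The part of any probe shared by Ly6a and Ly6i in that last difference was not tested.

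Ly6i, the close relative of Ly6a, had 9136 UMIs in 3988 cells. Over monocytes and macrophages it stood at 1.52 (1.21 to 1.88) CPM in CTRL, 128 (123 to 133) in IRF3/7, 7.85 (7.17 to 8.58) in COX2i and 81.8 (79.7 to 84.0) in COX2i + 5-AZA. The order of libraries was that of Ly6a. The ratios were 6.40 (6.08 to 6.73) for IRF3/7, 2.37 (2.03 to 2.72) for COX2i and 5.75 (5.44 to 6.08) for COX2i + 5-AZA against CTRL, and 3.38 (3.25 to 3.52) for COX2i + 5-AZA against COX2i. Of all genes, 0.19%, 0.15%, 0.083% and 0.46% had a ratio as high. At the class mix of the control library the values were 3.29, 1.39, 3.39 and 1.36. The first of these used only the 3 classes with at least 20 cells in both libraries (Infl_Mono, Monocyte_1 and TAM_cycling) and so also left out other classes of CTRL, and most of its weight was on TAM_cycling, with 20 cells and 2 Ly6i UMIs in IRF3/7.

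Ly6i was higher in monocytes than in macrophages in each library, and higher in neutrophils than in macrophages in IRF3/7 and COX2i + 5-AZA. In IRF3/7 neutrophils and cDC2 did not differ beyond counting error. Monocyte_3 had the highest levels, 334 (216 to 493) CPM in COX2i (25 UMIs) and 1196 (1108 to 1289) in COX2i + 5-AZA (681 UMIs), a ratio of 1.84 (1.26 to 2.48). Monocyte_1 had 88.0 CPM in CTRL, 242 in IRF3/7, 171 in COX2i and 176 in COX2i + 5-AZA, with a ratio of 0.043 (-0.13 to 0.22) between both celecoxib libraries. In Monocyte_1 the level in COX2i + 5-AZA was thus no different from that in COX2i beyond counting error. Infl_Mono had 8.26 CPM in CTRL, 139 in IRF3/7, 81.9 in COX2i and 162 in COX2i + 5-AZA, the CTRL value resting on 4 UMIs. Neutrophils had 6.48 (0.785 to 23.4) CPM in CTRL (2 UMIs), 123 (76.3 to 189) in IRF3/7 and 319 (279 to 363) in COX2i + 5-AZA, the second highest level in that library. cDC2 had 5.75 CPM in CTRL, 108 in IRF3/7, 14.9 in COX2i and 66.3 in COX2i + 5-AZA, and CCR7+ DC had 106 in IRF3/7.

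The large macrophage classes held little Ly6i. TAM_C1q had 0.384 CPM in CTRL, 1.00 in COX2i and 8.58 in COX2i + 5-AZA, TAM_cycling had 0.698 CPM in CTRL, 13.1 in IRF3/7, 1.84 in COX2i and 12.2 in COX2i + 5-AZA, and TAM_Spp1 had 3.39 CPM in CTRL, 6.73 in COX2i and 28.4 in COX2i + 5-AZA. The ratios of COX2i + 5-AZA to CTRL were still high there, 4.48 (3.51 to 5.65) in TAM_C1q, 4.13 (3.26 to 5.15) in TAM_cycling and 3.07 (2.53 to 3.65) in TAM_Spp1. No Ly6i UMI was seen in Mast cells of CTRL or COX2i + 5-AZA, which allows up to 9.42 and 14.3 CPM (3 UMIs). Non-immune cells had between 0.415 CPM in CTRL and 1.34 in IRF3/7. The interval of the Ly6i class ratio lay above 0 in 5 of 6 classes for IRF3/7 against CTRL, 6 of 8 for COX2i against CTRL, 8 of 9 for COX2i + 5-AZA against CTRL and 6 of 10 for COX2i + 5-AZA against COX2i.

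After thinning to 1000 UMIs, a Ly6i UMI was found in 0.223% (0.130 to 0.357) of monocytes and macrophages in CTRL, 11.0% (10.1 to 11.9) in IRF3/7, 1.36% (1.10 to 1.65) in COX2i and 9.80% (9.19 to 10.4) in COX2i + 5-AZA. Without thinning the shares were 0.827%, 23.1%, 3.21% and 24.6%. The share in Monocyte_3 was 35.3% (19.7 to 53.5) in COX2i and 63.6% (57.6 to 69.2) in COX2i + 5-AZA, and in COX2i + 5-AZA neutrophils it was 24.5% (18.6 to 31.1). In Non-immune cells, which serve as the background for free RNA, no thinned cell had a Ly6i UMI, which allows a share of up to 0.542%, 1.74%, 0.329% and 1.88%, but thinning such deep cells to 1000 UMIs leaves few UMIs of any free RNA. Without thinning, 0.722% (0.197 to 1.84), 2.33% (0.637 to 5.85), 0.876% (0.379 to 1.72) and 1.88% (0.388 to 5.38) of them had one. The unthinned share of monocytes and macrophages in CTRL, 0.827%, lay within the interval of Non-immune cells, and the shares in the other libraries lay above it. Median depth in Non-immune cells was 15008, 20862, 11036 and 15212 UMIs per cell in CTRL, IRF3/7, COX2i and COX2i + 5-AZA, against 6259.5, 3148, 7612 and 6300.0 in monocytes and macrophages. At such unequal depth the shares cannot be compared directly. Scaled for depth, Ly6i in CTRL was 1.52 (1.21 to 1.88) CPM in monocytes and macrophages and 0.415 (0.113 to 1.06) in Non-immune cells, with intervals apart.

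The balance between Ly6i and its relative also differed by class. Any reading of Ly6i by Ly6a probes, or the reverse, was not tested here either. Per 1000 Ly6a UMIs there were 61.3 (59.6 to 63.1) Ly6i UMIs in monocytes and 11.2 (10.3 to 12.1) in macrophages of COX2i + 5-AZA. In IRF3/7 the values were 34.1 (32.7 to 35.6) and 5.67 (4.29 to 7.35), and in COX2i they were 69.5 (62.3 to 77.4) and 9.42 (7.87 to 11.2). Monocytes had the higher balance in each of these 3 libraries, and in CTRL, at 30.8 (19.2 to 47.0) on 22 Ly6i UMIs against an interval of 9.14 to 15.4 in macrophages. Monocyte_3 stood highest, with 343 (314 to 374) in COX2i + 5-AZA and 171 (107 to 263) in COX2i, and neutrophils of COX2i + 5-AZA followed with 187 (162 to 216). Among the low values were TAM_H2Ab1 with 5.75 in IRF3/7 and 4.78 in COX2i + 5-AZA, Non-immune cells with 0.938 in IRF3/7, and Mast cells with 0 Ly6i UMIs beside 807 Ly6a UMIs in CTRL and 784 in COX2i + 5-AZA.

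**Figure D4:**
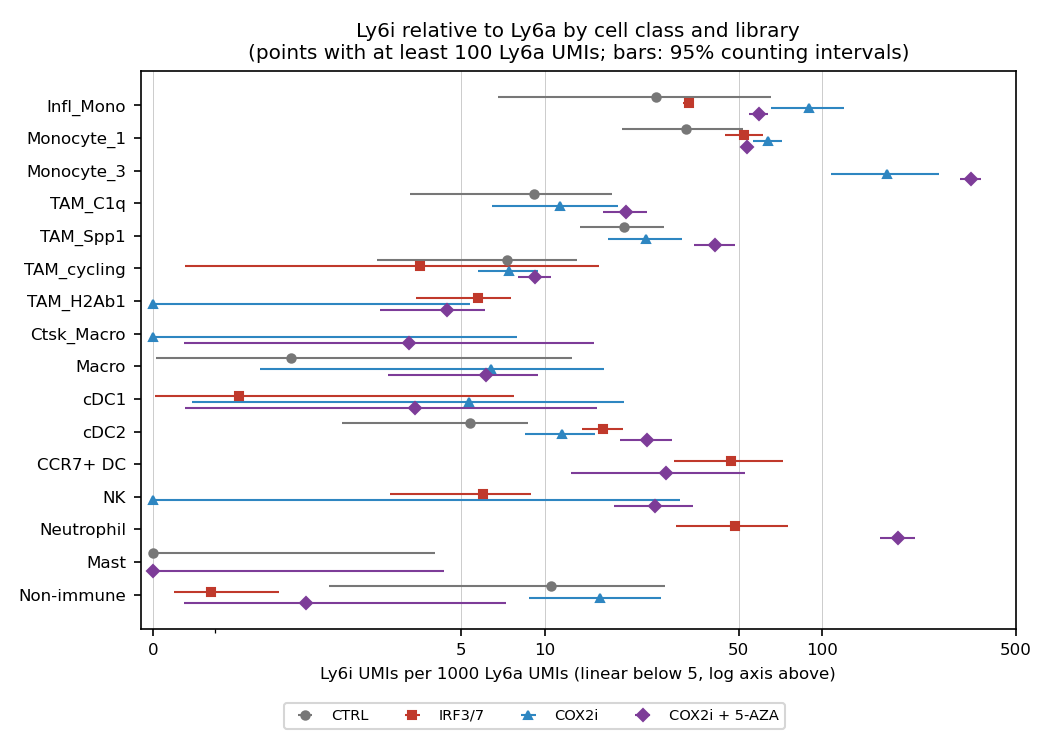
Ly6i UMIs per 1000 Ly6a UMIs by cell class and library, with exact 95% intervals for counting error, for classes with at least 100 Ly6a UMIs. In COX2i + 5-AZA the balance ran from 0 in Mast to 343 in Monocyte_3.

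Ly6e, the member most distant in sequence, had at least 1 UMI in 33436 of the 34447 cells. Over monocytes and macrophages it stood at 1178 (1169 to 1188) CPM in CTRL, 7133 (7094 to 7172) in IRF3/7, 1615 (1605 to 1625) in COX2i and 3228 (3214 to 3241) in COX2i + 5-AZA. The ratios to CTRL were 2.60 (2.58 to 2.61) for IRF3/7, 0.45 (0.44 to 0.47) for COX2i and 1.45 (1.44 to 1.47) for COX2i + 5-AZA. Ratios as high were found in 2.9%, 10% and 3.9% of genes, and in 6.2% for COX2i + 5-AZA against COX2i. At the control library's class mix the ratios were 2.41 (over the same 3 classes), 0.42, 1.01 and 0.60. After thinning to 1000 UMIs, 59.6% (58.5 to 60.7) of these cells had a Ly6e UMI in CTRL, 99.2% (98.9 to 99.4) in IRF3/7, 69.2% (68.2 to 70.3) in COX2i and 89.1% (88.4 to 89.7) in COX2i + 5-AZA, and without thinning 93.0%, 99.8%, 97.0% and 99.2%.

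In Monocyte_1 and Infl_Mono Ly6e differed by less than 2-fold between libraries other than IRF3/7. Monocyte_1 had 4066 CPM in CTRL, 6011 in IRF3/7, 4243 in COX2i and 4281 in COX2i + 5-AZA, and Infl_Mono had 3372 CPM in CTRL, 7049 in IRF3/7, 4298 in COX2i and 5274 in COX2i + 5-AZA. In Monocyte_1 the ratio to CTRL was 0.56 (0.46 to 0.67) for IRF3/7, 0.062 (-0.042 to 0.17) for COX2i and 0.074 (-0.024 to 0.17) for COX2i + 5-AZA, so the intervals of both celecoxib libraries held 0. The sign of the COX2i value turned when the class was scaled to its median gene (-0.039). Among macrophages the libraries differed by more than 2-fold in TAM_cycling and Ctsk_Macro. TAM_C1q had 937 CPM in CTRL, 1137 in COX2i and 1661 in COX2i + 5-AZA, TAM_cycling had 1051 CPM in CTRL, 6109 in IRF3/7, 1480.3 in COX2i and 2498 in COX2i + 5-AZA, and TAM_Spp1 had 1831 CPM in CTRL, 2173 in COX2i and 2534 in COX2i + 5-AZA. Ctsk_Macro went from 480.4 CPM in CTRL to 2072 in COX2i and 4871 in COX2i + 5-AZA, with ratios of 2.11 (2.03 to 2.19) and 3.34 (3.25 to 3.43). Macro, already at 4318 CPM in CTRL, had 4612 in COX2i and 4514 in COX2i + 5-AZA. TAM_H2Ab1 of IRF3/7 had the highest Ly6e level of any class, 8140.2 CPM.

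Outside monocytes and macrophages, cDC2 had 3971 CPM in CTRL, 6041 in IRF3/7, 3721 in COX2i and 3860.4 in COX2i + 5-AZA of Ly6e, with ratios to CTRL of 0.61 (0.56 to 0.65) for IRF3/7 and -0.094 (-0.13 to -0.057) for COX2i. For COX2i + 5-AZA the cDC2 ratio was -0.041 (-0.089 to 0.0072), an interval that holds 0, and its sign turned when the class was scaled to its median gene (0.095). NK cells had 4453 CPM in IRF3/7, 3841 in COX2i and 3362 in COX2i + 5-AZA, and the ratio of COX2i + 5-AZA to COX2i was -0.19 (-0.29 to -0.094). Neutrophils had 1373 CPM in CTRL, 5644 in IRF3/7 and 3387 in COX2i + 5-AZA. Non-immune cells had 1603 CPM in CTRL, 3579.7 in IRF3/7, 2128 in COX2i and 2701 in COX2i + 5-AZA. Mast cells were the lowest class in both libraries where they were measured, at 188 CPM in CTRL and 592 in COX2i + 5-AZA, whereas the same cells were among the 2 highest classes for Ly6a. The interval of the Ly6e class ratio lay above 0 in 6 of 6 classes for IRF3/7 against CTRL, 6 of 9 for COX2i against CTRL with 1 below 0, 8 of 11 for COX2i + 5-AZA against CTRL, and 8 of 14 for COX2i + 5-AZA against COX2i with 2 below 0. In CTRL the leading classes Macro, Monocyte_1 and cDC2 did not differ between neighbours beyond counting error. In COX2i the same held for the first 5, TAM_H2Ab1, Monocyte_3, Macro, Infl_Mono and Monocyte_1.

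Ly6g, the neutrophil antigen, was found in 110 cells with 246 UMIs, of which the Neutrophil class held 218. In neutrophils of COX2i + 5-AZA there were 206 UMIs in 79 of 196 cells, 286 (248 to 328) CPM. In CTRL there were 10 UMIs in 5 of 65 neutrophils, 32.4 (15.5 to 59.6) CPM, and in IRF3/7 2 UMIs in 2 of 49, 11.7 (1.42 to 42.4) CPM. COX2i held 5 neutrophils with no Ly6g UMI, too few to read. The COX2i + 5-AZA library was the highest, with a ratio to CTRL of 3.14 (2.23 to 4.22) in neutrophils, whereas IRF3/7 against CTRL gave -1.46 (-4.69 to 0.77), an interval that holds 0. After thinning to 1000 UMIs, 23.0% (17.3 to 29.5) of neutrophils had a Ly6g UMI in COX2i + 5-AZA, 4.62% (0.962 to 12.9) in CTRL and 2.04% (0.0517 to 10.9) in IRF3/7, and without thinning 40.3%, 7.69% and 4.08%. Outside neutrophils, 24 of 34132 cells (0.0703%) had a Ly6g UMI, with between 3 and 11 such cells per library.

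Over all cells Ly6g stood at 0.280 CPM in CTRL (19 UMIs), 0.228 in IRF3/7 (6 UMIs), 0.0381 in COX2i (3 UMIs) and 2.86 in COX2i + 5-AZA (218 UMIs). Ratios to CTRL were -0.30 (-1.91 to 1.08), -2.88 (-5.28 to -1.11) and 3.35 (2.67 to 4.11), and COX2i + 5-AZA against COX2i gave 6.23 (4.66 to 8.52). For COX2i + 5-AZA against CTRL the ratio was 2.35 at the class mix of CTRL and 1.63 (0.77 to 2.56) in cells with more than 2000 detected genes. The class mix of COX2i could be applied only to 14 classes without Neutrophil, where 12 UMIs in COX2i + 5-AZA and 3 in COX2i gave 1.05. The share of all genes at least 2-fold higher over all cells was 10.8% for IRF3/7, 2.45% for COX2i and 6.49% for COX2i + 5-AZA against CTRL, and 6.85% for COX2i + 5-AZA against COX2i. Ly6g was among the genes called in the last 2. The number of neutrophils behind these sums was 65 in CTRL, 49 in IRF3/7, 5 in COX2i and 196 in COX2i + 5-AZA. Fewer such cells and less transcript per cell cannot be told apart in a sum over all cells.

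Other neutrophil genes also differed between libraries inside this class. The summed level of 7 neutrophil markers in the class was 26721 CPM in CTRL, 41358 in IRF3/7 and 97082 in COX2i + 5-AZA, with no marker at 0 in these libraries. In CTRL neutrophils this was less than the sum of the 5 TAM_C1q markers, complement and lipid genes of macrophages (34579 CPM). The part of these shifts in the Ly6g difference was not tested. S100a8, a calcium-binding alarm protein of neutrophils, was 9539 CPM in CTRL, 16092 in IRF3/7 and 40547 in COX2i + 5-AZA. Retnlg, a resistin-like protein of mature neutrophils, was 1124 CPM in CTRL, 1175 in IRF3/7 and 4498 in COX2i + 5-AZA, and Mmp8, neutrophil collagenase, was 188 CPM in CTRL, 717 in IRF3/7 and 1312 in COX2i + 5-AZA. Ngp and Ltf, granule genes of immature neutrophils, had another order. Ngp was 347 CPM in CTRL, 2437 in IRF3/7 and 609 in COX2i + 5-AZA, and Ltf was 48.6 CPM in CTRL, 763 in IRF3/7 and 55.5 in COX2i + 5-AZA. Prtn3 and Elane, earlier granule genes with few UMIs, were not higher than CTRL in IRF3/7 or COX2i + 5-AZA. Prtn3 was 45.3 CPM in CTRL, 29.4 in IRF3/7 and 16.7 in COX2i + 5-AZA. Elane had 6 UMIs in CTRL, 0 in IRF3/7 and 1 in COX2i + 5-AZA. The ratios of COX2i + 5-AZA to CTRL were -1.44 (-2.69 to -0.23) for Prtn3 and -3.81 (-9.33 to -0.76) for Elane.

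Among the 196 neutrophils of COX2i + 5-AZA, cells with and without a Ly6g UMI were set side by side for genes chosen after the values were seen. Their median depth was 2859 UMIs in the 79 cells with Ly6g and 2546 in the 117 without. Ltf was 12.5 CPM in cells with Ly6g (4 UMIs) and 90.1 in cells without (36 UMIs), whereas Ngp, on more UMIs, was 667 CPM in cells with Ly6g (214 UMIs) and 563 in cells without (225 UMIs). Retnlg was 6447 against 2932 CPM and Mmp8 1616 against 1067. Ly6a did not follow Ly6g, at 1685 against 1722 CPM, and Ly6i was 252 against 373.

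**Figure D5:**
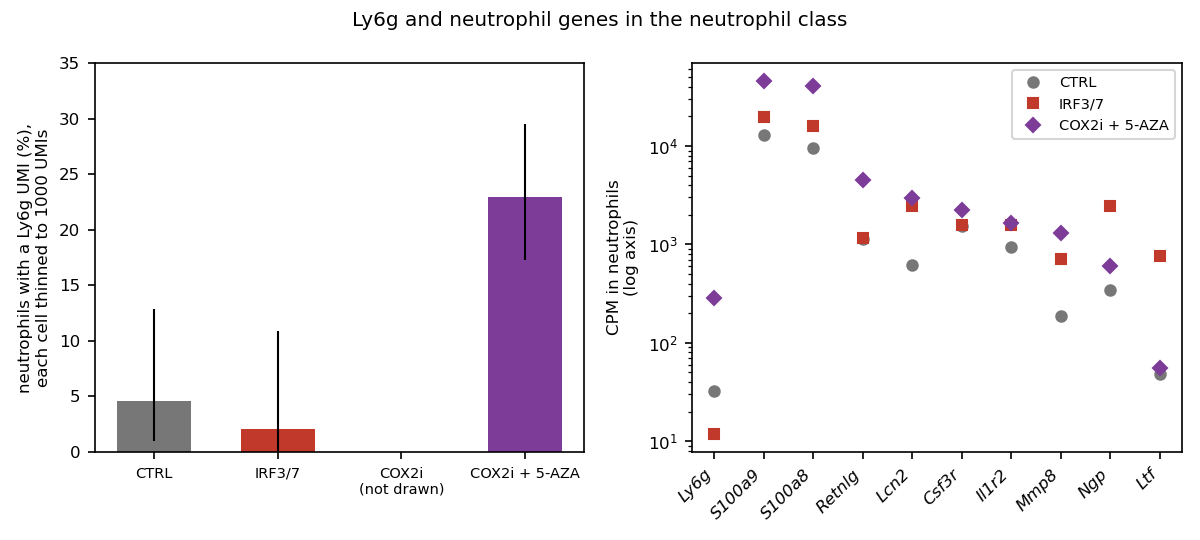
Left, percent of Neutrophil cells with a Ly6g UMI after thinning each cell to 1000 UMIs, by library, with exact 95% binomial intervals (lines), COX2i (5 cells) not drawn; right, level of Ly6g and of other neutrophil genes in the same class (CPM, log axis), 1 point per library. The share was 23.0% in COX2i + 5-AZA, 4.62% in CTRL and 2.04% in IRF3/7, and Ltf was 763 CPM in IRF3/7 and 48.6 in CTRL.

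The bases just before the annotated start of Ly6g are shown because 218 of its 246 UMIs lay in 1 class. The stretch chr15:75155011-75155239 (plus strand, GRCm38.p6, RefSeq, 229 bases) has 49.8% G and C. Capitals mark matches to the motifs searched on both strands.
Ly6g promoter: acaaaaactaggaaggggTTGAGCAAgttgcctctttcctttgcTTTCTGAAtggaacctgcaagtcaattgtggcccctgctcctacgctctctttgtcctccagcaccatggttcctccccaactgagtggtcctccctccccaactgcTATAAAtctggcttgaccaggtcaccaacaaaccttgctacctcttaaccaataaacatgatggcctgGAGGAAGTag
The interferon motifs searched, the core of the interferon-stimulated response element (ISRE) and TTCNNNGAA, the interferon-γ-activated site, had 0 matches. They occur in 2.71% and 6.46% of 32851 promoters, each cut to its first 229 bases and not to its own annotated gene start. Of 2 Ly6g promoters listed, the one with the lowest start was used. The C/EBP-like motif TTNNGNAA had 2 matches, the first at -211 from the gene start, and occurs in 35% of promoters. The PU.1 motif GAGGAAGT had 1 match at -10 (2.16% of promoters), and TATAAA had 1 match at -78 (11.7% of promoters). A match is a description of the letters. The promoters of Ly6a, Ly6i and Ly6e had no entry in the promoter table.

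Beside these ratios stand those of 2 lists of interferon-regulated genes in monocytes and macrophages, counted as called at 2-fold or more beside the background of 9.16%, 1.93%, 5.65% and 6.16%. Of the type I interferon-skewed genes the number called was 14 of 14 for IRF3/7 against CTRL, 0 of 14 for COX2i against CTRL, 13 of 14 for COX2i + 5-AZA against CTRL and 12 of 14 for COX2i + 5-AZA against COX2i, with median log2 ratios of 5.34, 0.40, 2.12 and 1.71. Of the interferon-γ-skewed genes it was 18 of 18 for IRF3/7 against CTRL, 12 of 17 for COX2i against CTRL, 18 of 18 for COX2i + 5-AZA against CTRL and 17 of 18 for COX2i + 5-AZA against COX2i, with medians of 4.11, 1.44, 3.97 and 2.40. The median over all genes tested was -0.55, 0.0098, -0.16 and -0.19. In COX2i against CTRL most genes of the second list were thus called and none of the first. Irf7, the regulator of type I interferon production, had ratios of 5.52, 0.42, 2.71 and 2.29 in the 4 comparisons, and Isg15 had 6.05, 0.84, 3.05 and 2.21. Irf7 is also 1 of the genes overexpressed in the tumour cells of the IRF3/7 group. In that library Irf7 stood at 3170 CPM in monocytes and macrophages and 4964 over all cells. The part of tumour-cell Irf7 RNA in its ratio of 5.52 was not tested. Ifit3, an antiviral type I interferon target, had 5.59, -0.071, 1.89 and 1.96. Gbp2 had 4.31, 2.07, 4.34 and 2.26, Cxcl9 had 3.45, 2.17, 4.61 and 2.44 and Irf1, a first-wave interferon-γ target, had 3.57, 1.00, 2.81 and 1.81. The values of Ly6a and Ly6i in the same order were 5.31, 1.52, 4.20 and 2.67, and 6.40, 2.37, 5.75 and 3.38. Neither gene is in either list.

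The other genes of the family and the machinery of its membrane anchor were counted in the same way. Of the other Ly6/uPAR superfamily genes 13 of 42 were in the table. The number called was 5 of 12 for IRF3/7 against CTRL, 0 of 11 for COX2i against CTRL, 1 of 12 for COX2i + 5-AZA against CTRL and 3 of 12 for COX2i + 5-AZA against COX2i, with medians of 0.19, -0.81, -0.40 and 0.25. At least 2-fold lower were 4 of 12, 3 of 11, 4 of 12 and 1 of 12 in the same order. The shares of all genes were 32.2%, 4.7%, 11.3% and 9.77%. Over all cells 3 of 13 were higher and 2 of 13 lower for COX2i + 5-AZA against CTRL, and 1 of 12 and 3 of 12 for COX2i. In monocytes and macrophages of both celecoxib libraries, more genes of this list were lower than CTRL by 2-fold than higher. Plaur, the urokinase receptor that anchors a protease at the cell surface, had ratios of 1.22, -0.079, 0.86 and 0.94, Cd59a, an inhibitor of complement, had -4.24, -0.71, -1.14 and -0.43, and Cd177, a neutrophil surface protein, had 2.64, -0.81, 0.73 and 1.54. Bambi and Lynx1, the other genes of this list with most UMIs, had -0.030, -0.0077, 0.20 and 0.21, and 1.27, -0.71, -0.42 and 0.29. Of the genes for GPI anchor synthesis and attachment the number called was 1 of 26 for IRF3/7 against CTRL, 0 of 26 for COX2i against CTRL, 0 of 26 for COX2i + 5-AZA against CTRL and 0 of 26 for COX2i + 5-AZA against COX2i, with medians of -0.61, 0.041, -0.17 and -0.19, close to those over all genes, and 5, 0, 0 and 0 of the 26 were at least 2-fold lower. The 1 gene called was Pgap2, which remodels the anchor, at 1.39, 0.27, 0.69 and 0.41. Pigt and Pigk, subunits of the enzyme that attaches the anchor, had -0.84, 0.16, -0.22 and -0.38, and -0.92, -0.10, -0.29 and -0.19.

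Of the neutrophil granule and maturation genes, read over all cells beside the backgrounds of 10.8%, 2.45%, 6.49% and 6.85%, the number called was 12 of 16 for IRF3/7 against CTRL, 0 of 16 for COX2i against CTRL, 13 of 16 for COX2i + 5-AZA against CTRL and 14 of 16 for COX2i + 5-AZA against COX2i, with medians of 2.35, -1.60, 1.84 and 3.39. At least 2-fold lower were 1, 9, 1 and 1 of the 16 in the same order, beside 15.9%, 3.16%, 11.4% and 11.9% of all genes. Neutrophils numbered 65, 49, 5 and 196 in CTRL, IRF3/7, COX2i and COX2i + 5-AZA, and their part in these counts was not tested. Part of the list is not particular to neutrophils. Mmp9, a gelatinase also expressed by Ctsk_Macro, had a ratio of -4.47 in monocytes and macrophages of IRF3/7 against CTRL, and S100a8 stood at 44.8 CPM in CTRL and 699 in IRF3/7 in those cells.

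Genes with the most similar pattern were named by Pearson's r of log2(CPM + 1) over 40 points, each 1 class in 1 library with at least 50 cells, among 10845 genes. The points share libraries, depth and class definitions, so r is a description. For Ly6a the 5 closest were Zbp1 (0.90), Irgm1 (0.88), Cd274 (0.88), Ly6e (0.88) and Gvin1 (0.88). Zbp1 is a sensor of nucleic acids, Irgm1 and Gvin1 are interferon-induced GTPases, and Cd274 encodes the checkpoint ligand PD-L1. For Ly6i they were Gsap (0.88), Cers6 (0.86), Cd274 (0.86), N4bp1 (0.85) and Slfn1 (0.85), and for Ly6e Ly6a (0.88), BC147527 (0.81), Nod1 (0.80), Plac8 (0.80) and Ifitm3 (0.80). Plac8 marks monocytes, Ifitm3 restricts virus entry and Nod1 senses bacterial cell wall. For Ly6g they were Asprv1 (0.94), Ngp (0.94), Il1f9 (0.91), Cstdc4 (0.88) and Retnlg (0.88), with Spearman's rho between 0.44 and 0.58. Only 2 of the 40 points were neutrophils (CTRL and COX2i + 5-AZA), and over the other 38 points r was 0.66 for Asprv1, 0.45 for Il1f9, 0.098 for Cstdc4, 0.063 for Retnlg and 0.046 for Ngp. Of these genes Ngp and Retnlg are on the neutrophil list. Between members r was 0.88 for Ly6a and Ly6e, 0.77 for Ly6a and Ly6i and 0.61 for Ly6i and Ly6e, and Ly6g had r between -0.055 and 0.16 with the other three.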

How the data were processed

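Sorted CD45+ cells of 4 libraries were fixed and assayed with a probe-based kit (Chromium Flex), in which ligated probes on fixed RNA are counted. Per the labels, the authors ran Cell Ranger 7.1.0 with mm10. Per the methods they then set limits on detected genes and on mitochondrial and ribosomal content per cell, removed ribosomal and mitochondrial genes, and clustered the cells after integration over several experiments. The authors deposited the UMI counts of each gene in each cell without normalization, with a table of cell classes by the authors. In the deposited table the fewest detected genes in a cell was 783 and the fewest UMIs 906. No column was left out.

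UMIs were summed over the cells of a library and class, and CPM, log2 ratios of CPM and shares of cells were computed with Python 3.11.15, numpy 2.4.6, scipy 1.17.1 and pandas 2.3.3. Intervals were exact Poisson, conditional binomial and Clopper-Pearson 95% intervals. Where a library had 0 UMIs the floor of 3 UMIs was used in its place, and no ratio was given where both libraries were at or under it. Monocytes were Infl_Mono, Monocyte_1 and Monocyte_3, and macrophages TAM_C1q, TAM_Spp1, TAM_cycling, TAM_H2Ab1, Ctsk_Macro and Macro. The script was tested on simulated data. The study tested single cells by rank sums, which was not used, because cells of 1 library are not replicates. No doublet caller was run, and leaving out the 5% of cells with most UMIs stood in as an alternative.

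The members and the gene lists (type I interferon, interferon-γ, other Ly6/uPAR, GPI anchor, neutrophil) were chosen with earlier results of these data known. The genes named were the 4 members, up to 5 genes of each list with most UMIs and the 5 genes most like each member. Genes set beside cells with and without Ly6a or Ly6g were chosen after the values were seen, as were Mmp8, Ltf, Prtn3 and Elane. Of these, 1 gene is not reported here. No full cell barcode occurred in more than 1 library, but 4830 of 29259 droplet barcodes did, since the libraries were hybridised to barcoded probes and pooled, and 29.1% of cells carried one. Coding sequences and positions came from GENCODE vM21 (GRCm38), and the Ly6g promoter from RefSeq.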

Additional observations from a re-analysis of the deposited data

Results flagged for a closer look

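For 3 Ly6e values a class moved against other classes under the same comparison, each with an interval clear of 0. Against COX2i, Ly6e in COX2i + 5-AZA was lower in NK cells, with a log2 ratio of -0.19 (-0.29 to -0.094), and in TAM_H2Ab1, with -0.17 (-0.25 to -0.090), whereas 8 of 14 classes lay above 0. Against CTRL, Ly6e in COX2i was lower in cDC2, with -0.094 (-0.13 to -0.057), whereas 6 of 9 classes lay above 0. The levels were 3841 and 3362 CPM in NK cells, 5023 and 4464 in TAM_H2Ab1 (41 cells in COX2i) and 3971 and 3721 in cDC2. The difference between classes was not tested, since each group is 1 library. All 3 values kept their sign when the class was scaled to its median gene.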

How the results depend on the processing

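No paired analysis was possible because each group is 1 library, and leaving out a replicate was not possible for the same reason. All 80 log2 ratios of the members over monocytes and macrophages, or over all cells for Ly6g, under another setting kept their sign. Of the ratios by class, Ly6e turned sign when a class was scaled to its median gene in Monocyte_1 for COX2i against CTRL (0.062 to -0.039) and in cDC2 for COX2i + 5-AZA against CTRL (-0.041 to 0.095), both with intervals that hold 0. At the class mix of the control library, values were as given above for Ly6a (4.51, 1.18, 3.06 and 1.86), Ly6i (3.29, 1.39, 3.39 and 1.36) and Ly6e (2.41, 0.42, 1.01 and 0.60), in the order IRF3/7, COX2i and COX2i + 5-AZA against CTRL and COX2i + 5-AZA against COX2i, and for Ly6g over all cells 2.35 and 1.05 in the last 2, the last over 14 classes without Neutrophil, on 12 and 3 UMIs. With median-of-ratios size factors, IRF3/7 against CTRL was 5.84 for Ly6a, 6.92 for Ly6i and 3.12 for Ly6e, COX2i + 5-AZA against CTRL 4.36 for Ly6a and 1.62 for Ly6e, and COX2i + 5-AZA against COX2i 2.86, 3.57 and 1.19 for Ly6a, Ly6i and Ly6e. In cells with more than 2000 detected genes Ly6a was 5.47, 4.26 and 2.72 (IRF3/7 and COX2i + 5-AZA against CTRL, and against COX2i), Ly6e 2.73, 0.49 and 1.49 against CTRL, Ly6i 1.84 for COX2i against CTRL and 3.87 for COX2i + 5-AZA against COX2i, and Ly6g 1.63 for COX2i + 5-AZA against CTRL, over 51 and 15 UMIs. Without the 5% of cells with most UMIs, Ly6a was 4.26 and 2.72 for COX2i + 5-AZA and Ly6e 2.58 for IRF3/7. Without cells whose droplet barcode occurs in another library, a setting chosen after seeing the data, Ly6a was 5.37, 1.58 and 4.24 against CTRL, and Ly6e 0.43 for COX2i and 1.44 for COX2i + 5-AZA. Other values under these settings stayed within their intervals.

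Shares of monocytes and macrophages with a UMI rise with depth. Thinned to 2000 UMIs they were 11.1, 93.4, 23.1, 75.2% for Ly6a, 16.7, 1.91, 13.1% for Ly6i (IRF3/7 onward), 76.8, 99.9, 84.2, 95.6% for Ly6e, in the order CTRL, IRF3/7, COX2i, COX2i + 5-AZA, and for Ly6g 0 in COX2i and 0.0481% in COX2i + 5-AZA. Unthinned they were 18.6, 95.5, 37.9, 88.1% for Ly6a, 0.827, 23.1, 3.21, 24.6% for Ly6i, 93.0, 99.8, 97.0, 99.2% for Ly6e, and for Ly6g 0.0525% in CTRL, 0.0794% in IRF3/7 and 0.114% in COX2i + 5-AZA. Over all cells, 1.57% of genes with at least 200 UMIs were 2-fold higher for COX2i against CTRL. By Spearman's rho 2, 3, 2 and 1 of the 5 most similar genes were also the closest by Pearson's r for Ly6a, Ly6i, Ly6e and Ly6g, and without the neutrophil points, a setting chosen after seeing the data, 1 of the 5 for Ly6g remained. Depth limits Ly6g and, in CTRL, Ly6i, where single UMIs decide a class value.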
